A study of Mus musculus with 4 samples.

Results

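Replication-dependent histone genes were followed in blood-forming stem and progenitor cells from the NOD strain, a mouse model of autoimmune diabetes, after a short culture with or without 2 drugs. A gene counted as a member if a probe set of the array named it alone, under an older symbol of the Hist1 to Hist4 series or a newer H1f, H2ac, H2bc, H3c or H4c symbol, and pseudogene symbols ending in -ps were left out. This gave 29 probe sets and 28 genes among 30145 genes with a probe set of their own, and for Hist1h4b, which had a pair of probe sets, the one with the higher mean over the 4 arrays was used. The members were 5 linker histone genes (H1), 10 genes of H2A, 8 of H2B, 3 of H3 and 2 of H4. RefSeq lists 68 genes of these families under the same naming rule, so 5 of 6 H1 genes were covered, 10 of 19 for H2A, 8 of 18 for H2B, 3 of 12 for H3 and 2 of 13 for H4. A further 39 probe sets each list several symbols with a histone gene among them, and these are described apart. By RefSeq, 22 members lie in the Hist1 cluster on chromosome 13 and 6 in the Hist2 cluster on chromosome 3.

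The Combo group held 2 samples treated for 4 h with dmPGE2 (16,16-dimethyl prostaglandin E2, a long-lived analog of a lipid mediator that raises cAMP) and dexamethasone, a synthetic glucocorticoid, each at 10 µM. The Vehicle group held 2 samples that received DMSO. All 4 samples were lineage-negative, c-Kit-positive (LK) cells kept in StemSpan medium at 37 °C, and each was measured on 1 Affymetrix whole-transcript array. Samples in each group are numbered 1 and 2. The design text calls the duplicates biological, but the labels do not state where the cells of each came from or whether a number stands for a shared source, so p-values measure only the spread between these samples. No sample received either drug alone, and the labels used here state no age, sex or number of mice.

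Replication-dependent histone genes supply the proteins that package new DNA. Pairs of H2A, H2B, H3 and H4 form the core around which DNA winds, and H1 binds the linker DNA between the cores. Their transcription is raised in S phase by NPAT and its partners, and their mRNAs end in a stem-loop bound by SLBP in place of a poly(A) tail, are cut by a complex that holds the nuclease CPSF73, and are broken down when DNA synthesis stops. In marrow, progenitors divide often, so these mRNAs are among the marks of cells in S phase.

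Promoters of the family carry short shared elements, and RefSeq (GRCm38.p6) gave a window for 25 of the 28 members. No window was used here for Hist1h2aj, Hist1h3f and Hist2h2be. In the 250 bases before the annotated start, on both strands, CCAAT (bound by NF-Y) was found in 24 of 25 members, against 33.8% of all 32851 promoter windows. TATAAA stood in 10 of 25, against 12.4% of all windows. The octamer ATTTGCAT, known from H2B promoters, stood in 8 of 25, namely 5 of 7 H2B and 3 of 9 H2A windows, against 1.6% of all. The H1 box AAACACAA stood in 4 of 25, which were Hist1h1b, Hist1h1c, Hist1h1t and the H2B gene Hist1h2bm, against 1.67% of all. Matches of different motifs overlapped in 0 cases. Some windows hold the same bases read from opposite strands: those of Hist1h2aa and Hist1h2ba share 220 bases, and those of Hist1h2ah and Hist1h2bk share 177. Matches in shared bases are counted for both genes. In each pair the octamer of the H2A gene is the same site as that of the H2B gene. The 5 windows printed here belong to members whose signals are given below. They are, with strand, Hist1h1a at chr13:23763418-23763667 (plus), Hist1h1b at chr13:21780626-21780875 (minus), Hist1h1c at chr13:23738557-23738806 (plus), Hist2h2ab at chr3:96219635-96219884 (plus) and Hist1h2bm at chr13:21721794-21722043 (plus). Each is written 5′ to 3′ along its gene, ends at the base before the start, and has the motif matches on either strand in capitals.
Hist1h1a: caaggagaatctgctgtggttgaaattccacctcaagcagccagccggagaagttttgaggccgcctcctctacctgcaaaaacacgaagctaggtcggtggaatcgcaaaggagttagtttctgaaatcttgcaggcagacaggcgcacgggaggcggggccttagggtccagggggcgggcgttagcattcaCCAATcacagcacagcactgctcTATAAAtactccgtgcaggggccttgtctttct
Hist1h1b: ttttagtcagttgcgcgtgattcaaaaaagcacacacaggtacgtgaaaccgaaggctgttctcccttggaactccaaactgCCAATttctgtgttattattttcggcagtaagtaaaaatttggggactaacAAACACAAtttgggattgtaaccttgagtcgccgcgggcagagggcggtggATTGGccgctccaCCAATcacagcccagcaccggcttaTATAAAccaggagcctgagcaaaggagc
Hist1h1c: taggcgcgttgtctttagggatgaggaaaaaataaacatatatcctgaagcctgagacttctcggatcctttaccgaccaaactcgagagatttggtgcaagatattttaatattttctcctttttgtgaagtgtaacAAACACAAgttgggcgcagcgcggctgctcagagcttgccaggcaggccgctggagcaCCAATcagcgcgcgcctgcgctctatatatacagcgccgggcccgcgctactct
Hist2h2ab: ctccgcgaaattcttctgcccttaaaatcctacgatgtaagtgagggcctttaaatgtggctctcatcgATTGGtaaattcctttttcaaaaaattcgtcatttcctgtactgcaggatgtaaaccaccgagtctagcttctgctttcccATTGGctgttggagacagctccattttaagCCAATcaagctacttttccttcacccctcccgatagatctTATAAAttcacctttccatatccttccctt
Hist1h2bm: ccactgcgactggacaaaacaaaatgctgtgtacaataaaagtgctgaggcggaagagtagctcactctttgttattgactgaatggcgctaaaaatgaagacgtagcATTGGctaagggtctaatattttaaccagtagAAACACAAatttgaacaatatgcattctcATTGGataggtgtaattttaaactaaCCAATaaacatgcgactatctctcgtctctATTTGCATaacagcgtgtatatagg
In the windows of Hist1h1a, Hist1h1b and Hist1h1c the CCAAT nearest the start began 56, 53 and 54 bases before it. The H1 box began 117 bases before the start of Hist1h1b, 112 before that of Hist1h1c and 110 before that of Hist1h2bm, and no exact match lay in the window of Hist1h1a. These matches describe the letters only.

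Signals are RMA values on the log2 scale, and differences are on the same scale, so that 1 unit is a doubling. Array medians over 65956 features lay between 4.36 and 4.44. Single background probe sets reached 5.55, and a gene whose mean over the 4 arrays lay above that value is called above background. All 8 measured of 10 LK markers were above background, with Kit at 9.62 to 10.51 and the myeloid progenitor enzyme gene Mpo at 17.63 to 18.13. Of the T cell markers 0 of 5 were above background, and of the B cell markers 1 of 4. Precision is limited by the 2 arrays of each group, since arrays have no read depth. In bulk RNA, fewer cells of a type and less RNA per cell cannot be told apart.

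Of the 28 histone genes 19 were above background, and their 4-array means ran from 3.22 for the testis linker histone Hist1h1t to 19.09 for Hist1h2aj, near the highest feature value of any array, 19.88. By class, 3 of 5 H1, 7 of 10 H2A, 7 of 8 H2B, 2 of 3 H3 and 0 of 2 H4 genes were above background. Probe sets differ in their response, so one gene's signal is not set against another's. Hist1h2aj is a pseudogene in RefSeq (H2ac14), and without it the median difference of the other 27 genes was -0.13 for Combo minus Vehicle and 0.31 for number 1 minus number 2. The testis genes Hist1h2aa and Hist1h2ba had means of 9.12 and 9.26, above background. Whether the probe sets of these genes, or of other members, also read similar copies of their class was not tested.

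**Figure D1:**
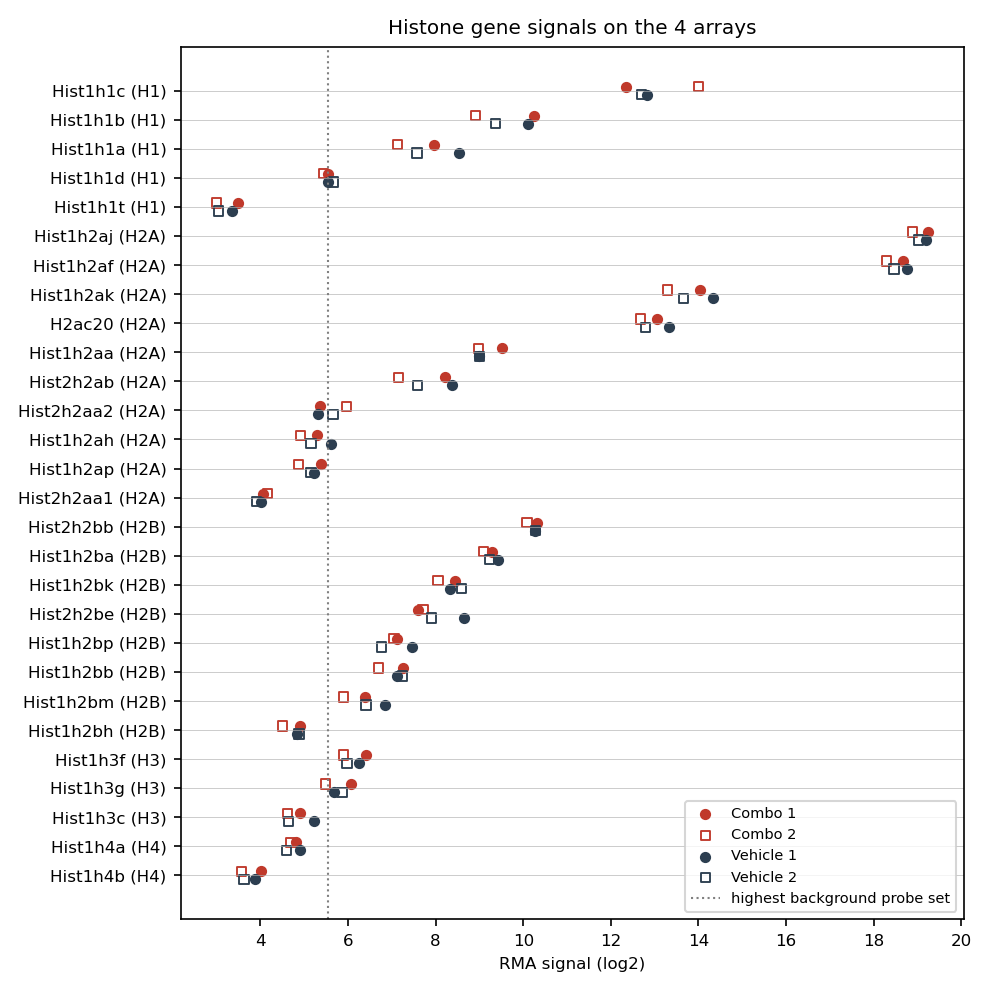
Log2 RMA signal (x axis) of each of the 28 histone genes (y axis, by class) on the 4 arrays: filled circles are number 1, open squares number 2, red Combo and dark Vehicle, and the dotted line is the highest single background probe set (5.55). Within most genes the filled symbols lie right of the open ones, and for Hist1h1c the Combo 2 square (13.99) stands to the right of the other 3 arrays.

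Combo against Vehicle asks whether 4 h with both drugs moved histone transcripts. In limma 0 of 28 histone genes passed an adjusted p of 0.05 (Benjamini-Hochberg over all features), the smallest adjusted p being 0.91 for Hist2h2be, and 0 of 28 had an unadjusted p under 0.05. Over all features 0.00303% passed the adjusted threshold as higher and 0% as lower, and at an unadjusted p under 0.05 these shares were 3.14% and 2.44%. The median difference over the 28 genes was -0.13, against 0.02 over all features and -0.03 over features above background. The signal was lower in Combo in 21 genes and higher in 7, against 44.6% of all features lower and 55.4% higher. Of features above background 12194 of 21898 were lower in Combo, and of the 19 members above background 15 were. With each array centred on its median 24 members were lower and 4 higher, for which no share of all features is given. Both Combo arrays lay below both Vehicle arrays in 3 genes (Hist1h1d, Hist2h2be and Hist1h2bm), where 13.9% of all features and 19.7% of those above background did so, and above in 1 (Hist2h2aa1), where 20.4% did.

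The lower median did not stand in both numbered pairs. Between the arrays numbered 1, Combo was below Vehicle in 14 of 28 genes (43% of all features, 53.2% of those above background). The median difference there was 0.01. Between those numbered 2, Combo was below in 23 of 28 (49.3% of all features, 55.8% of those above background). The median there was -0.19. Leaving out Combo 2 gave a median of 0.05 with 11 genes lower, and leaving out Vehicle 1 gave 0.01 with 12 lower. Without Combo 1 the median was -0.30 with 25 lower, and without Vehicle 2 it was -0.14. Class medians turned as well. The H1 median was 0.20 without Vehicle 1. Without Combo 2 the H2A median was 0.08 and that of H3 0.29, and without Vehicle 1 they were 0.03 and 0.13. The H4 median, 0.02 in full, was -0.12 without Combo 1 and also without Vehicle 2. The 5 macrophage markers were split, with a median of 0.14 and 0 past limma's adjusted threshold. Both Combo arrays lay above both Vehicle arrays in C1qa, C1qb and C1qc, subunits of complement C1q whose means were within background, by 0.14, 1.09 and 0.37. Both lay below in Adgre1, by -0.56, and in Mrc1, the mannose receptor gene, by -2.19. The log2 of the summed linear signal of the 5 was 8.90 and 9.51 in Combo, against 10.48 and 11.38 in Vehicle. Mrc1 (8.08 and 9.04 in Combo, against 10.25 and 11.25 in Vehicle) weighed most in that sum. All 8 measured LK markers were lower in Combo (median -0.23), as were all 3 mast cell markers (-0.40) and all 3 erythroid markers (-0.56). Of all features 44.6% were lower, and of those above background 12194 of 21898. Neutrophil markers were higher in 5 of 6 (0.11), T cell markers, all within background, in 5 of 5 (0.17), and megakaryocyte markers in 2 of 3 (0.10). B cell markers were split. None of these passed limma's adjusted threshold. The part of these markers in the histone values was not tested.

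Number 1 against number 2 compares arrays that the labels tell apart by replicate number alone. This contrast, with the group as a covariate, gave 25 of 28 histone genes higher and 3 lower on number 1, where 47.4% of all features were higher. Of features above background 12384 of 21898 were higher, and of the 19 members above background 17 were (median 0.31). Of the 9 members not above background 8 were higher (median 0.29). The median difference of the 28 genes was 0.30 (1.23-fold), against -0.01 over all features and 0.05 over those above background. It was 0.38 within Combo, where 24 genes were higher on array 1 (51.2% of all features, 56.4% of those above background). Within Vehicle it was 0.25, where 20 were higher (45.2% and 54.4%). Number 1 was above number 2 in both groups in 17 genes and below in both in 1, Hist2h2aa2, while 10 were mixed. Over all features 26.3% were above in both and 29.8% below in both, and over features above background these shares were 36.6% and 25.8%.

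No histone gene passed limma's adjusted threshold in that contrast either: the count was 0 of 28, against 40 features in all (0.0606%, each higher on number 1), and the smallest adjusted p was 0.24, for Hist1h1a. At an unadjusted limma p under 0.05, 9 histone genes were higher on number 1 (5.35% of all features) and 1 was lower (4.8%). Of the 9, 6 were above background and 3 were not. Among features above background 2580 of 21898 were higher and 1636 lower at that p. Genes of neutrophil granules moved with the same contrast. Each of the 6 neutrophil markers was higher on number 1 in both groups, and 5 of the 6 were above background. Ngp differed by 5.59 (limma adjusted p = 0.037), Ltf by 4.48 (limma adjusted p = 0.026) and Camp by 5.13 (limma adjusted p = 0.066). For the 6, the log2 of the summed linear signal was 16.56 and 16.50 on Combo 1 and Vehicle 1. It was 14.69 and 14.28 on Combo 2 and Vehicle 2. The surface marker Ly6g stayed under the highest background probe set on all 4 arrays (4.51 to 5.10). The 8 LK markers were mixed by number, with a median of -0.19, 6 lower and 2 higher on number 1. They ran from -1.02 for Flt3 and -0.99 for Cd34 to 0.37 for Kit and 0.48 for Tal1, and 5 were below and 1 above in both groups. On number 1, of the 3 measured erythroid markers Alas2 and Slc4a1 were lower and Epor higher. The log2 of the summed linear signal of those 3 was 10.48 and 11.37 on Combo 1 and Vehicle 1. It was 11.83 and 12.15 on Combo 2 and Vehicle 2. The part of these cells in the histone values was not tested.

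**Figure D2:**
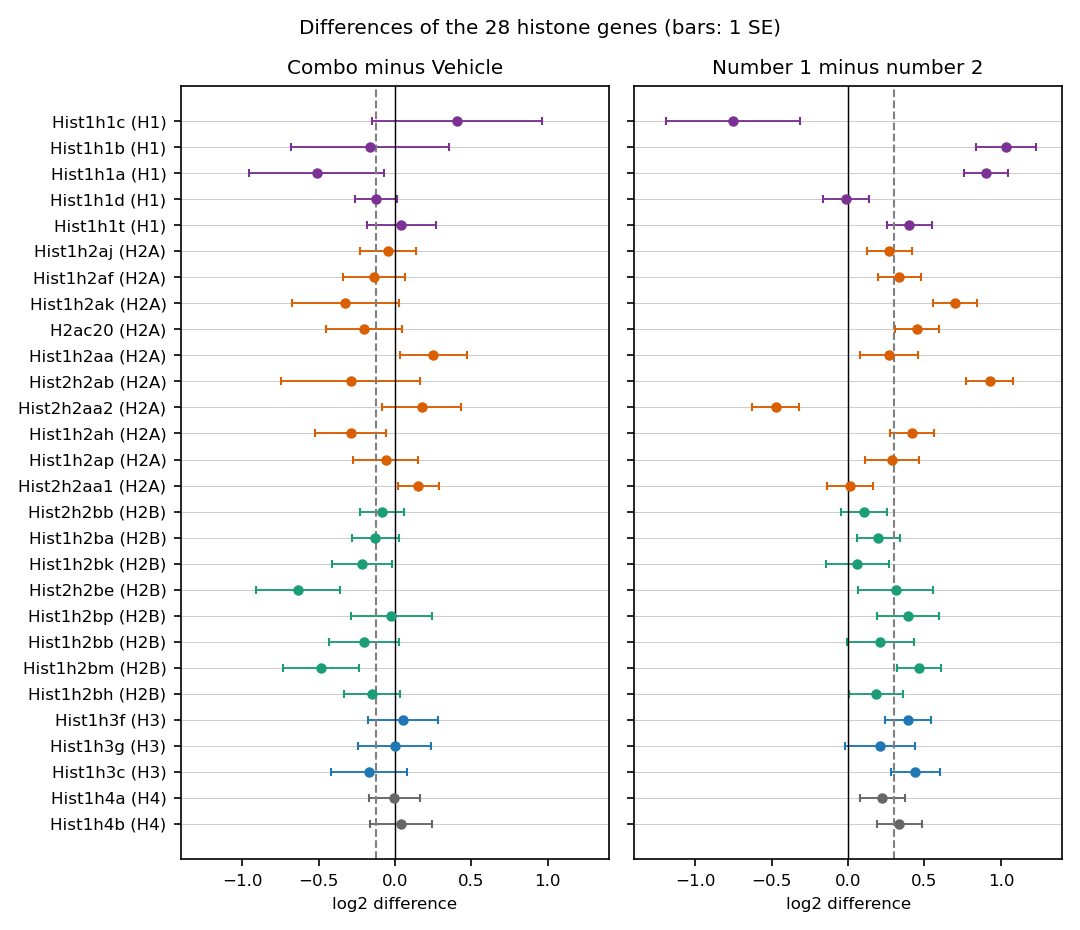
Log2 difference (x axis) of the 28 histone genes (y axis, coloured by class), Combo minus Vehicle on the left and number 1 minus number 2 on the right, with bars of 1 limma SE, a solid line at 0 and a dashed line at the median of the 28 genes (-0.13 and 0.30). On the right 25 of 28 points lie above 0, with Hist1h1c (-0.75), Hist2h2aa2 (-0.47) and Hist1h1d (-0.01) on the other side.

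Linker histone genes held the widest range of both contrasts. Hist1h1b (H1f5 in RefSeq), a replication-dependent H1, gave 10.24 and 8.91 on Combo 1 and 2, against 10.11 and 9.36 on Vehicle 1 and 2. Both number 1 arrays were above both number 2 arrays, whichever the group. The number difference was 1.04 (SE 0.20, 2.05-fold; limma adjusted p = 0.28), while Combo minus Vehicle was -0.16 (SE 0.52) with overlapping groups. Hist1h1a (H1f1) gave 7.96 and 7.13 in Combo, against 8.54 and 7.57 in Vehicle. It too was higher on number 1 in both groups, by 0.90 (SE 0.14, 1.87-fold; limma adjusted p = 0.242), and Combo was lower in both numbered pairs, by -0.58 and -0.44, yet the groups overlapped. Its Combo mean was 7.54 ± 0.59 and its Vehicle mean 8.06 ± 0.69 (SD, n = 2 each), a difference of -0.51 smaller than either SD.

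Hist1h1c (H1f2), a linker gene that in human cells also gives polyadenylated mRNA, went the other way. Its signals were 12.35 and 13.99 in Combo, against 12.83 and 12.70 in Vehicle. Combo 2 was the highest array and Combo 1 the lowest, and the Vehicle arrays differed by 0.13. Combo minus Vehicle was 0.41 (SE 0.56; limma adjusted p = 0.973), made of -0.48 for number 1 and 1.29 for number 2. The number difference was -0.75 (SE 0.44; limma adjusted p = 0.653), made of -1.64 in Combo and 0.13 in Vehicle. Combo 2 entered the larger term of each. Without this gene the median of the other 27 was -0.13 for Combo minus Vehicle and 0.31 for number 1 minus number 2.

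Of the remaining H1 genes, Hist1h1d (H1f3) lay at the edge of background with 5.53 and 5.43 in Combo, against 5.54 and 5.67 in Vehicle, and its number difference was -0.01. Both of its Combo arrays were below both Vehicle arrays, a mean difference of -0.12. The testis linker gene Hist1h1t (H1f6) gave 3.48 and 3.0 in Combo, against 3.36 and 3.04 in Vehicle, all under the highest background probe set. It still split by number, by 0.40 (limma adjusted p = 0.475). Class medians for H1 were -0.12 for Combo minus Vehicle and 0.40 for number 1 minus number 2.

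Among the H2A genes, Hist1h2aj gave 19.24 and 18.89 in Combo, against 19.20 and 19.02 in Vehicle, and Hist1h2af (H2ac10) gave 18.67 and 18.29, against 18.76 and 18.47. In both genes the number 1 array was above the number 2 array within each group, by 0.19 to 0.38. Their Combo differences were -0.04 and -0.14, within the spread of the 2 arrays. Hist2h2ab (H2ac21) of the Hist2 cluster gave 8.22 and 7.15 in Combo, against 8.37 and 7.58 in Vehicle. It was the H2A gene with the largest number difference, 0.93 (SE 0.15, 1.90-fold; limma adjusted p = 0.251), while Combo minus Vehicle was -0.29 (SE 0.45). Hist1h2ak (H2ac15) gave 14.03 and 13.30 in Combo, against 14.32 and 13.65 in Vehicle. Its number difference was 0.70 (SE 0.14, 1.62-fold; limma adjusted p = 0.295), and Combo was lower in both numbered pairs, by -0.29 and -0.36, with overlapping groups.

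H2ac20, also of the Hist2 cluster, gave 13.04 and 12.68 in Combo, against 13.33 and 12.79 in Vehicle, a number difference of 0.45 (limma adjusted p = 0.436). Against these, Hist2h2aa2 (H2ac19) gave 5.35 and 5.96 in Combo, against 5.31 and 5.65 in Vehicle. It was the member lower on number 1 in both groups, by -0.47 (SE 0.15; limma adjusted p = 0.434), at signals near the background limit. The testis gene Hist1h2aa (H2ac1) gave 9.52 and 8.98 in Combo, against 8.995 and 9.003 in Vehicle, so only Combo 1 stood apart. Hist2h2aa1 (H2ac18), at 4.07 and 4.16 in Combo against 4.02 and 3.90 in Vehicle, was within background and was the gene with both Combo arrays above both Vehicle arrays. Hist1h2ah and Hist1h2ap, with means of 5.24 and 5.15, were within background as well and were higher on number 1 in both groups, by 0.42 and 0.29. In all, 9 of 10 H2A genes were higher on number 1 and 7 of 10 lower in Combo, with medians of 0.31 and -0.10. Of all features 47.4% were higher on number 1 and 44.6% lower in Combo, and of 21898 above background 12384 and 12194 were.

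In the H2B class all 8 genes were lower in Combo, with a median of -0.18, and all 8 were higher on number 1, with a median of 0.20 (0.30 within Combo and 0.09 within Vehicle). Of all features 44.6% were lower in Combo and 47.4% higher on number 1, and of 21898 above background 12194 and 12384 were. Between the arrays numbered 1, Combo was below Vehicle in 4 of 8 H2B genes (median -0.05), and between those numbered 2 in 7 of 8 (-0.29). Without Combo 1 the Combo median of this class was -0.38, and without Combo 2 it was -0.0031. Hist2h2be (H2bc21), a Hist2 cluster gene whose human counterpart also makes polyadenylated mRNA, gave 7.59 and 7.71 in Combo, against 8.65 and 7.91 in Vehicle. Both Combo arrays lay below both Vehicle arrays, and Vehicle 1 stood highest. Its difference of -0.63 (SE 0.28; limma adjusted p = 0.91), a signal 1.55-fold higher in Vehicle, was -1.06 for number 1 and -0.20 for number 2. Hist1h2bm (H2bc14) gave 6.39 and 5.89 in Combo, against 6.84 and 6.41 in Vehicle. Combo was lower by a like amount in both numbered pairs, -0.45 and -0.52, and its mean difference was -0.49 (SE 0.25; limma adjusted p = 0.933). The same gene was higher on number 1 in both groups, by 0.46 (SE 0.14; limma adjusted p = 0.414).

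Other H2B genes differed less. Hist2h2bb (H2bc18) gave 10.30 and 10.09 in Combo, against 10.28 and 10.28 in Vehicle, with only Combo 2 lower. The testis H2B gene Hist1h2ba (H2bc1) gave 9.29 and 9.09 in Combo, against 9.41 and 9.22 in Vehicle, a split by number of 0.20 and 0.19 within the groups. Hist1h2bp (H2bc22) gave 7.13 and 7.05 in Combo, against 7.46 and 6.76 in Vehicle, with a number difference of 0.39 carried by the Vehicle arrays. For Hist1h2bk, Hist1h2bb and Hist1h2bh, Combo 1 was above Combo 2 while Vehicle 1 was below Vehicle 2, and their number differences were 0.06, 0.21 and 0.18.

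Few H3 and H4 genes had a probe set of their own. Hist1h3f (H3c7) gave 6.42 and 5.90 in Combo, against 6.24 and 5.97 in Vehicle, a number difference of 0.39 (limma adjusted p = 0.501). Hist1h3c (H3c3), within background, gave 4.91 and 4.62 in Combo, against 5.23 and 4.64 in Vehicle, a number difference of 0.44 (limma adjusted p = 0.472). Both were higher on number 1 in each group, whereas Hist1h3g (H3c8) was so only in Combo (6.07 and 5.48, against 5.69 and 5.86 in Vehicle). Median differences of the 3 H3 genes were -0.0023 for Combo minus Vehicle and 0.39 for the number. Hist1h4a (H4c1) gave 4.82 and 4.68 in Combo, against 4.91 and 4.60 in Vehicle, and Hist1h4b (H4c2) gave 4.00 and 3.57, against 3.87 and 3.63. Both H4 genes were within background and higher on number 1 in both groups, by 0.22 and 0.34. The second probe set of Hist1h4b, with a mean of 3.41, went the other way by number (-0.21), so the pair disagreed in sign.

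Of the 39 probe sets that list several symbols with a histone gene among them, 33 were above background. Their signals sum copies of 1 class, except in 3 mixed sets, and cannot be given to 1 gene. The mixed sets include a probe set that pairs a histone symbol with Trim17, which is no histone gene. The median of the 39 was -0.09 for Combo minus Vehicle and 0.28 for number 1 minus number 2. Of them 29 were lower in Combo, 33 higher on number 1, and 27 above in both groups. Over all features these shares were 44.6%, 47.4% and 26.3%. Among 21898 features above background, 12194 were lower in Combo, 12384 higher on number 1 and 36.6% above in both groups. None of the shared sets passed limma's adjusted threshold in either contrast. At an unadjusted limma p under 0.05 the count was 0 for Combo. For the number 14 were higher (5.35% of all features) and 1 lower (4.8%). Among features above background 2580 were higher and 1636 lower at that p. All 7 shared H3 probe sets were lower in Combo, with a median of -0.28, and higher on number 1 in both groups, with a median of 0.45. Shared H2A sets had medians of -0.05 and 0.31, and shared H2B sets -0.11 and 0.17. The 11 shared H4 sets were mixed: their medians were -0.02 and 0.25, and 6 were above and 3 below on number 1 in both groups. One of those H4 sets gave 10.20 and 10.34 on Combo 1 and Vehicle 1, against 10.82 and 10.89 on Combo 2 and Vehicle 2, and another gave 13.92 and 13.73, against 14.08 and 14.31.

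**Figure D3:**
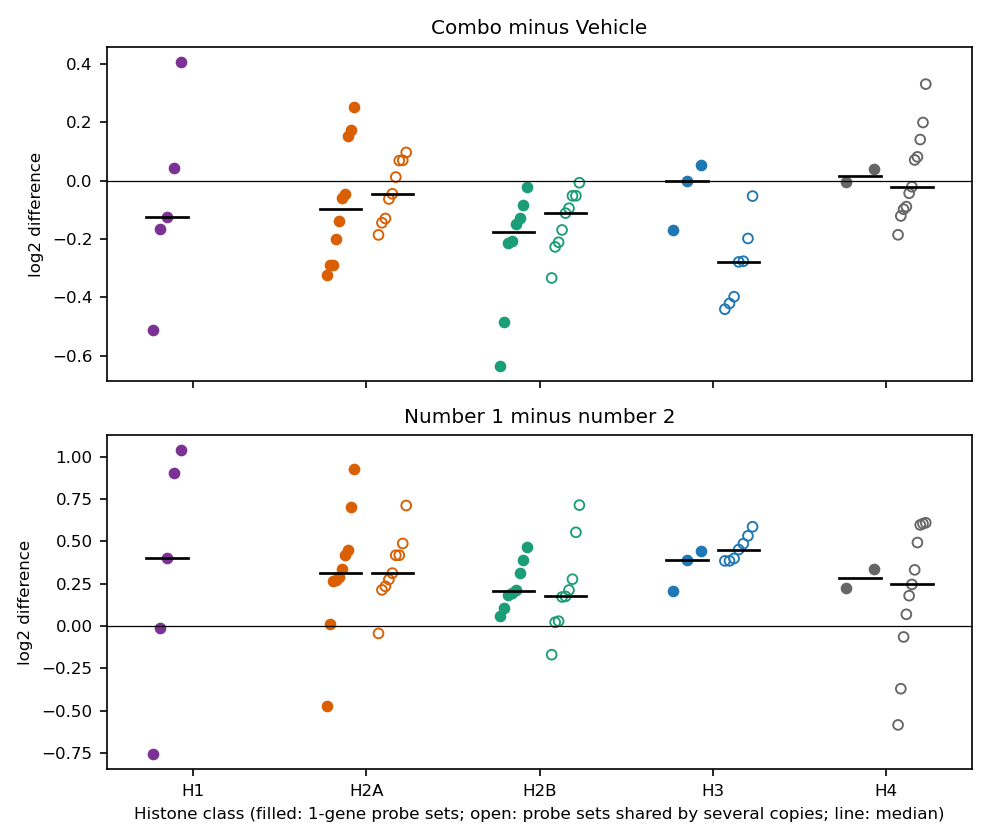
Log2 difference (y axis) by histone class (x axis), Combo minus Vehicle above and number 1 minus number 2 below, for probe sets of 1 gene (filled) and probe sets shared by several copies of a class (open), with a line at each median. H2B points all lie below 0 in the upper panel, as do the 7 shared H3 sets (median -0.28), and the shared H4 sets spread to both sides of 0 in the lower panel.

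Genes that make and handle histone mRNA were read from a list of 21, of which 19 were measured. None passed limma's adjusted threshold in either contrast, and the medians were -0.12 for Combo minus Vehicle and 0.12 for the number. Slbp, the stem-loop binding protein, gave 8.89 and 8.84 in Combo, against 9.10 and 8.68 in Vehicle. Npat, the S phase coactivator of histone genes, gave 11.27 and 10.97 in Combo, against 11.34 and 11.15 in Vehicle, and Casp8ap2 (FLASH), needed for the cut of the 3′ end, gave 10.03 and 10.17, against 10.11 and 10.28. Slbp and Npat were higher on number 1 in both groups, by 0.23 and 0.25, and Casp8ap2 was lower in both, by -0.16. Larger number differences were those of Zcchc11 (Tut4), a uridylyltransferase, at 0.95 (limma adjusted p = 0.217), of Cpsf2 at 0.59 and of the nuclease gene Cpsf3 (CPSF73) at 0.50. At an unadjusted limma p under 0.05, 3 genes of this list were higher on number 1 (5.35% of all features) and 0 lower (4.8%).

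Histone chaperones, which carry histones to chromatin, had 16 of 19 measured. Their medians were -0.06 for Combo minus Vehicle and 0.26 for the number, with 15 of 16 higher on number 1. Of all features 47.4% were higher, and of those above background 12384 of 21898. In either contrast 0 chaperones passed limma's adjusted threshold. At an unadjusted limma p under 0.05, 4 were higher on number 1 (5.35% of all features, 2580 of 21898 above background) and 0 lower (4.8%). Daxx, which loads H3.3 with Atrx, gave 8.64 and 7.38 in Combo, against 8.66 and 7.50 in Vehicle, a number difference of 1.21 (SE 0.14; limma adjusted p = 0.146). Chaf1b, a subunit of the CAF-1 complex that places H3 and H4 behind the fork, differed by 0.52, and Nap1l4, of the H2A and H2B carriers, by 0.52. Replacement histones and other histones outside the member list had 8 of 11 measured and medians of -0.10 and 0.03. H2afx (H2A.X) was higher on number 1 in both groups by 0.41, H2afv (H2A.Z.2) differed by 0.05, and H2afy (macroH2A1) was lower on number 1 in both groups, by -0.59 (SE 0.14; limma adjusted p = 0.340). H2afy was also lower in Combo, with 9.78 and 10.39, against 10.51 and 11.08 in Vehicle, a difference of -0.71 (limma adjusted p = 0.909).

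Genes of DNA replication, which work in the same phase, were higher on number 1 in 26 of 28 measured and in both groups in 22. Over all features 47.4% were higher, and 26.3% were so in both groups. Of the 21898 features above background 12384 were higher, and 36.6% were so in both groups. The median of the replication genes was 0.29 for the number and -0.16 for Combo minus Vehicle, beside 0.30 and -0.13 for the histone genes. Mcm6, a helicase subunit, gave 13.20 and 12.66 in Combo, against 13.73 and 13.17 in Vehicle, a number difference of 0.55 (SE 0.14; limma adjusted p = 0.359). Pola1, the catalytic subunit of polymerase alpha, differed by 0.58 and Rrm1, of ribonucleotide reductase, by 0.52. The 24 measured genes of G2 and mitosis had medians of 0.18 and -0.16. On number 1, 17 were higher in both groups (26.3% of all features, 36.6% of those above background). Among these Nusap1 differed by 0.69, Cenpf by 0.60 and Plk1 by 0.56. None of the replication and mitosis genes passed limma's adjusted threshold in either contrast. At an unadjusted limma p under 0.05, 7 replication and 8 mitosis genes were higher on number 1 (5.35% of all features) and 0 lower (4.8%). Among features above background 2580 of 21898 were higher and 1636 lower at that p. In Combo minus Vehicle the pairs numbered 1 carried the lower medians of replication and mitosis genes (-0.26 and -0.32, against -0.05 and -0.03 for number 2), while for the histone genes it was the pair numbered 2 (-0.19, against 0.01 for number 1). That difference between lists was not tested.

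**Figure D4:**
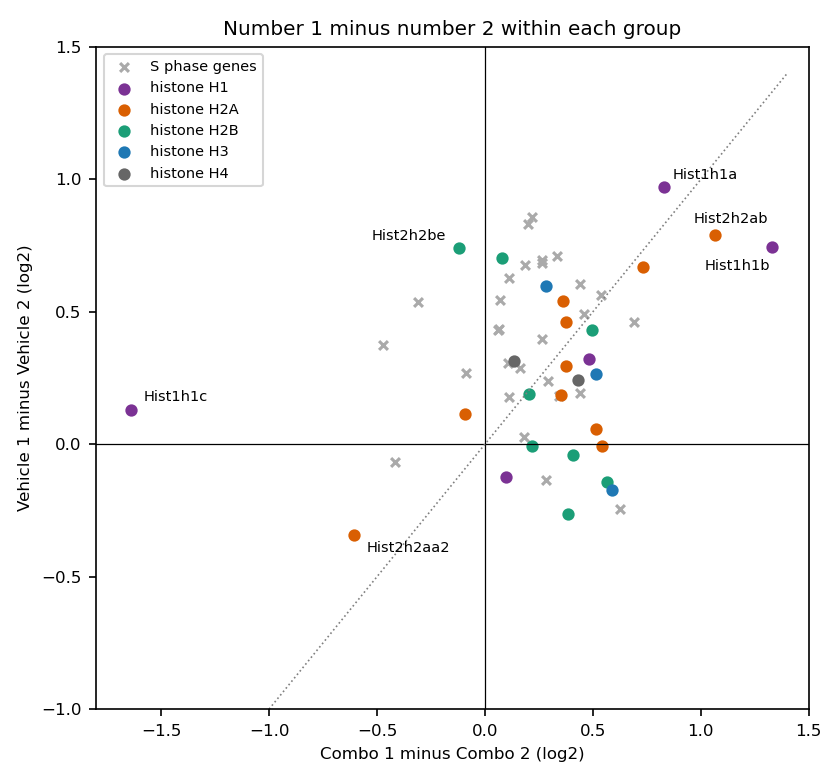
Number 1 minus number 2 on the log2 scale within Combo (x axis) and within Vehicle (y axis), for the 28 histone genes by class (circles) and 28 S phase genes (crosses), with a dotted line of equal differences. Points of 17 histone genes and 22 S phase genes lie in the upper right part, Hist2h2aa2 lies in the lower left, and Hist1h1c (-1.64 in Combo, 0.13 in Vehicle) stands to the far left.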

How the data were processed

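Per the labels' protocols, RNA came from a PicoPure extraction, and biotinylated cRNA was made from 10 ng with Affymetrix WT Pico reagents. The deposited values are log2 signals. The authors made them with RMA and the Transcriptome Analysis Console, as the submitters' processing notes list without versions. For the genome build, the sources used here give no name. Arrays are brought by RMA to a common distribution, which hides any change in the RNA content of a cell, and low signals are compressed.

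Of 72688 rows, 6732 control rows were left out. The platform annotation gave 1 symbol for 30604 of the 65956 features and several for 2146. The 28 members matched RefSeq (GRCm38.p6), where 27 have another symbol. The tests were limma 3.58.1 in R 4.3.3 (lmFit and eBayes, two-sided, Benjamini-Hochberg over all features, threshold 0.05), with the group alone for Combo minus Vehicle (residual degrees of freedom 2, prior 2.59) and with number and group for number 1 minus number 2 (residual 1, prior 3.53). The code was tested on simulated data. Each SD covers the 2 arrays of its group, and each SE is limma's moderated one. Lists are described by counts and medians only.

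Named were any member past the threshold, per class the 2 with the highest mean and the 2 with the largest difference in each contrast among those above background (all of the class where fewer than 4 were), the testis variants, the 3 of each other list with the smallest p, and Slbp, Npat and Casp8ap2. The other members, shared probe sets and cell markers were given after their values were seen. Members and lists were chosen with earlier results of these data known. Alternatives were the replicate block, the limma prior, filters on dim features, control rows, scaling, the probe set rule, testis variants, and each array left out, and adding the shared probe sets or leaving out Hist1h1c was chosen after seeing the data.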

Additional observations from a re-analysis of the deposited data

How the results depend on the processing

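In both contrasts 0 histone genes passed the adjusted threshold under every alternative that kept all arrays. Each tested 28 genes except the dim filters, which left 27 and 25. Of 138 recomputed values 136 were classed as the same and 2 as moved, a label that does not follow direction alone. The 2 moved values were both the H2B median for Combo minus Vehicle. It was -0.38 without Combo 1 and -0.0031 without Combo 2, against -0.18 in full, so its direction was kept. Some of the 136 reversed direction. The Combo median over the histone genes was 0.05 without Combo 2 and 0.01 without Vehicle 1, against -0.13 in full, and some class medians reversed too. With 1 array left out, the Combo median over the histone genes ran from -0.30 to 0.05 and the number median from 0.25 to 0.38. For the number contrast no test could be made without 1 array, since no residual degrees of freedom were left. By the labels, samples with the same replicate number share only that number. Their deviations within the groups correlated at 0.33 over all features and at 0.47 over features above background. With the replicate number as a block in Combo minus Vehicle, 0 of 28 histone genes passed (smallest adjusted p 0.493), while 19 features passed in all against 2. That total of 2 was 0 with control rows kept, with an intensity trend, with either dim filter, with a second quantile normalization and without any 1 array. In the number contrast 40 features passed in all, against 0 with control rows kept, with centred arrays or with a second quantile normalization, 21 without the group term, 24 with the weaker dim filter and 56 with an intensity trend. The cause was not tested. Signals near 5.55 or lower, as in 9 of 28 genes, cannot be told from background.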
